A study of Rattus norvegicus with 9 samples.

Results

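The genes examined here are 10 genes of the sinusoidal endothelial cell and of endothelium in general: Pecam1, Kdr, Vwf, Stab1, Stab2, Lyve1, Eng, Tek, Icam1 and Sele. Their probes were found through the RefSeq accession each probe carries, matched to current gene symbols and synonyms. Of the 10 genes, 7 had a probe on the array (9 probes), among 13438 named genes with a probe in all. Stab1 and Stab2, the scavenger receptors of liver sinusoids, and Vwf, von Willebrand factor, matched no probe and were not analysed here. The liver RNA came from 9 male Wistar rats, 1 array per rat, in 3 groups of 3. Control rats received neither agent. TBI rats were exposed to 6.5 Gy total-body irradiation from a 60Co source at 2 Gy/min. HSC + TBI rats were given Hong Shan Capsule (HSC), a preparation of medicinal herbs, by the intragastric route on 3 days before the same exposure. Livers were taken 24 h after exposure. The HSC dose is given as 10 g/kg/day in the study's design and methods and as 30 mg/kg/day in the sample labels. There was no group given HSC without irradiation, so HSC was measured only together with TBI.

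Liver sinusoids are lined by a fenestrated endothelium that clears waste molecules from the blood and lets plasma reach the hepatocytes. Its cells carry scavenger and hyaluronan receptors such as Lyve1 and Stab2, receptors for vascular growth signals such as Kdr and Tek, and the co-receptor Eng. Inflamed endothelium displays Icam1 and Sele, to which leukocytes adhere. Endothelium is a known target of ionizing radiation in the liver. These livers were measured as whole tissue, where fewer cells of a type and less RNA per cell cannot be told apart.

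The RNA was measured on 1-colour Agilent arrays, and values are given as log2 signal after quantile normalization, a scale on which 1 unit is a doubling. Of 41012 probes, those that stood well above background throughout some group (all its 3 arrays) were tested. They numbered 25369, among them 8 member probes of 6 genes. A probe was called changed where limma gave an adjusted p (Benjamini-Hochberg) under 0.05 and the difference was at least 1.5-fold. The share of probes above background was 56.6 to 59.3% in control arrays, 63.6 to 69.5% in TBI arrays and 58.7 to 60.5% in HSC + TBI arrays. The control arrays were all on 1 slide, the TBI arrays all on another, and the HSC + TBI arrays on the remaining pair, so slide and group cannot be told apart. Hepatocyte markers were above background on every array (7 of 7), as were Lyve1 and Kdr on all 9 arrays, so the labelled tissue and its endothelium were measured. The labels do not say how the 3 rats of a group were chosen from its 10 to 12 animals.

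The promoters of Lyve1 and Icam1 are shown because Lyve1 was the member that came nearest to a call after TBI and Icam1 the one that came nearest between the irradiated groups. They are RefSeq sequences of the rat assembly GRCr8, 250 bases before to 50 after the annotated start, on the gene's own strand. Of the 10 genes, 7 were in the promoter table. The motifs were chosen after the sequences had been seen and searched on both strands, and those found do not overlap. Capitals mark them. In Lyve1 (chr1:174410928-174411227, minus strand), the capitals mark CAGGAAG, a core of ETS factor sites, at -44 to -38. In Icam1 (chr8:27829595-27829894, plus strand), they mark the NF-kB-type element GGANTTTCC on the opposite strand (GGAAATTCC as printed, whose reverse complement is GGAATTTCC, -218 to -210), the STAT-type element TTCNNNGAA (as TTCCGGGAA, -107 to -99) and TATAAA (-53 to -48).
Lyve1: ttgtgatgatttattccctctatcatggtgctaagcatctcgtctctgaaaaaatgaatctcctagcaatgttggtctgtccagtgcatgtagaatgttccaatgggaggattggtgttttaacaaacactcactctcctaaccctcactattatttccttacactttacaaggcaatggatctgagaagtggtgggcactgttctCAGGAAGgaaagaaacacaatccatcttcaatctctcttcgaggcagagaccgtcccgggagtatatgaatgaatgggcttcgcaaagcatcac
Icam1: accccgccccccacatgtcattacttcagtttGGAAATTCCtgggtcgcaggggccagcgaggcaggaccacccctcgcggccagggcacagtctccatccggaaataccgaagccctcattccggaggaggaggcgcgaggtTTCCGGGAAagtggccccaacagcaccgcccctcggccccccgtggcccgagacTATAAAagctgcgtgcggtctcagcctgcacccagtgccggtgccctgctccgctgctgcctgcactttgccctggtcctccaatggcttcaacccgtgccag
Of 33469 rat promoters in the same window, 1.28% held GGANTTTCC, 8.87% TTCNNNGAA, 14.2% TATAAA and 12.5% CAGGAAG. These matches describe the letters only, since no binding was measured in these livers.

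No member was called in any of the 3 comparisons. Across all 3 groups the moderated F-test called 0 of 8 member probes, with adjusted p from 0.0831 to 0.967, against 6.89% of all tested probes. Between TBI and control 7.25% of tested probes were called, between HSC + TBI and control 3.23%, and between HSC + TBI and TBI 0.796%. At unadjusted p under 0.05 stood 3 of 8 member probes for TBI against control (2 probes of Lyve1 and 1 of Tek, of which the latter passed the background filter only through control, its highest group) against 25.5% of all tested probes, 3 for HSC + TBI against control (2 of Lyve1 and 1 of Icam1) against 19.6%, and 1 for HSC + TBI against TBI (Icam1) against 16.3%. The groups did not overlap for 2 member probes after TBI (1 of Lyve1 and the same Tek probe, 28.8% of all tested probes), 1 after HSC + TBI (31.7%) and 2 between the irradiated groups (21.4%). By the methods' t-test, unadjusted and with the 1.5-fold minimum, Icam1 was called between HSC + TBI and TBI in both forms of the test, and Tek after TBI with equal variances but not with unequal ones. With adjusted p, both forms called 0 members. The members' median log2 difference was 0.12, -0.07 and -0.16 in the same order of comparisons, by the brightest probe of each gene. Over all tested probes it was -0.01, 0.05 and 0.06, and over named genes, each by its brightest tested probe, 0.01, 0.02 and 0.02.

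**Figure D1:**
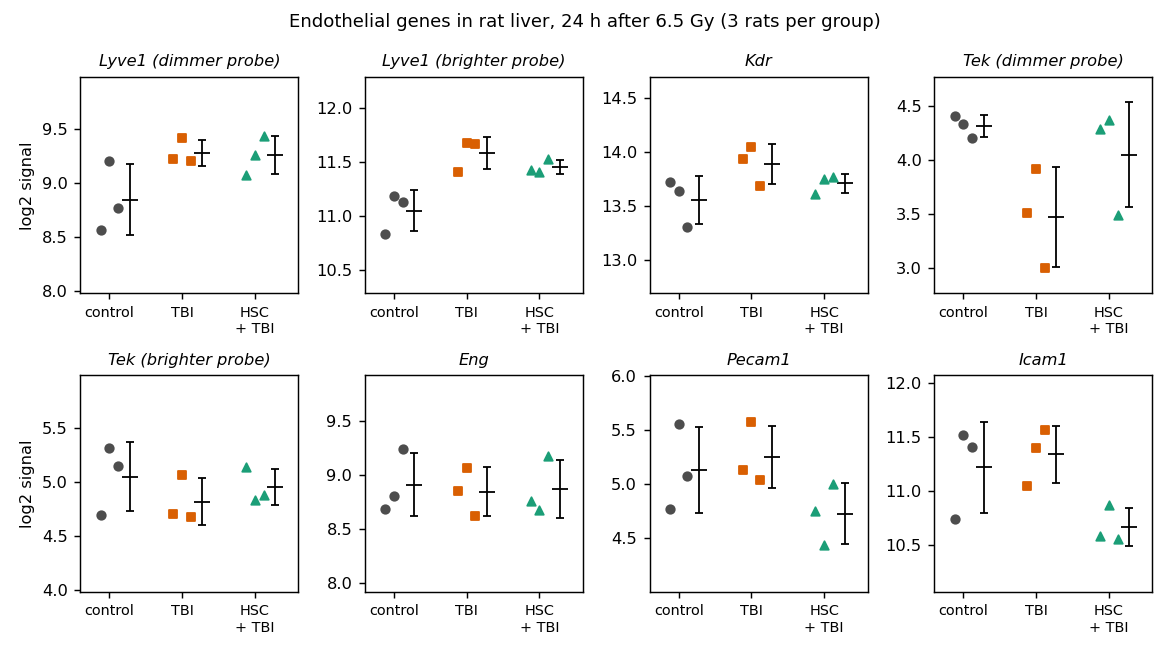
Log2 signal (vertical axis) of the 8 tested member probes in each rat, by group, with the group mean and SD in black beside the 3 points. The TBI points of the brighter Lyve1 probe lie above all control points, 1 control rat reaches them on the dimmer probe, and the HSC + TBI points of Icam1 lie below all TBI points.

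Of the receptors, Lyve1 (gene ID 293186), the hyaluronan receptor of lymphatic and sinusoidal endothelium, differed from control by the smallest adjusted p. On its brighter probe the control rats measured 10.84, 11.19 and 11.13, the TBI rats 11.41, 11.68 and 11.67, and the HSC + TBI rats 11.43, 11.41 and 11.53. All 6 irradiated rats lay above all 3 controls, and the irradiated groups overlapped each other. The TBI mean was 11.59 ± 0.15 (SD, n = 3) against 11.05 ± 0.19 in control, a log2 difference of 0.53 (SE 0.14, 95% interval 0.23 to 0.84), or 1.45-fold, with an adjusted p of 0.0469 by limma. It passed the adjusted p and missed the 1.5-fold minimum, so it was not called. After HSC + TBI the mean was 11.46 ± 0.07, 0.40 above control (95% interval 0.10 to 0.71, adjusted p = 0.147 by limma). HSC + TBI stood 0.13 below TBI, with a 95% interval of -0.44 to 0.18 (adjusted p = 0.67 by limma).

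The other Lyve1 probe lay in the same direction after TBI and HSC + TBI. Its controls measured 8.56, 9.20 and 8.77, the TBI rats 9.21, 9.41 and 9.20, and the HSC + TBI rats 9.07, 9.26 and 9.43. Here 1 control rat reached the range of the irradiated rats, so the groups overlapped. The differences from control were 0.43 (95% interval 0.02 to 0.84) and 0.41, with adjusted p of 0.179 and 0.254 by limma, and the irradiated groups differed by -0.02. Among 9597 named genes tested, the 3 whose level was most like that of Lyve1's brighter probe over the 9 arrays were Ly6g6d (r = 0.976), Ankrd13d (r = 0.968) and Tcim (r = 0.963). They are the highest of 9597 correlations over 9 arrays that share their slides and groups, and are given as a description only.

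Kdr (gene ID 25589), the main receptor for vascular endothelial growth factor on endothelium, was measured on 1 bright probe. The controls measured 13.72, 13.64 and 13.31, the TBI rats 13.94, 14.05 and 13.69, and the HSC + TBI rats 13.61, 13.75 and 13.77. Every group overlapped every other. The TBI mean stood 0.34 above control (95% interval -0.01 to 0.68, adjusted p = 0.206 by limma) and the HSC + TBI mean 0.15 above control (95% interval -0.19 to 0.50).

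Tek (gene ID 89804), the receptor for the angiopoietins, had 2 probes that differed in size of change. On the dimmer probe the controls measured 4.41, 4.34 and 4.21, the TBI rats 3.51, 3.92 and 3.00, and the HSC + TBI rats 4.29, 4.37 and 3.49. All 3 TBI rats lay below all controls, while the HSC + TBI rats overlapped both groups. This probe was not well above background in TBI rat 1 and HSC + TBI rat 3, so it was tested only because all 3 controls passed the background filter, which favours a lower value in the other groups. Its TBI mean stood at -0.84 against control and is given as a description only. On the brighter probe the controls measured 4.69, 5.31 and 5.15, the TBI rats 4.70, 5.07 and 4.68, and the HSC + TBI rats 5.14, 4.84 and 4.88. The groups overlapped there, and TBI stood at -0.23 against control (95% interval -0.67 to 0.20, adjusted p = 0.475 by limma).

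Eng (gene ID 497010), the endoglin co-receptor for BMP and TGF-beta ligands, did not pass the test in any comparison. The controls measured 8.69, 8.81 and 9.24, the TBI rats 8.86, 9.07 and 8.62, and the HSC + TBI rats 8.76, 8.68 and 9.18. All groups overlapped. The 95% interval was -0.53 to 0.40 for TBI against control, -0.50 to 0.42 for HSC + TBI against control and -0.44 to 0.48 between the irradiated groups, so each interval lay within a 1.5-fold difference in either direction. Of the 8 member probes, 1, 3 and 5 had such an interval in the 3 comparisons.

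**Figure D2:**
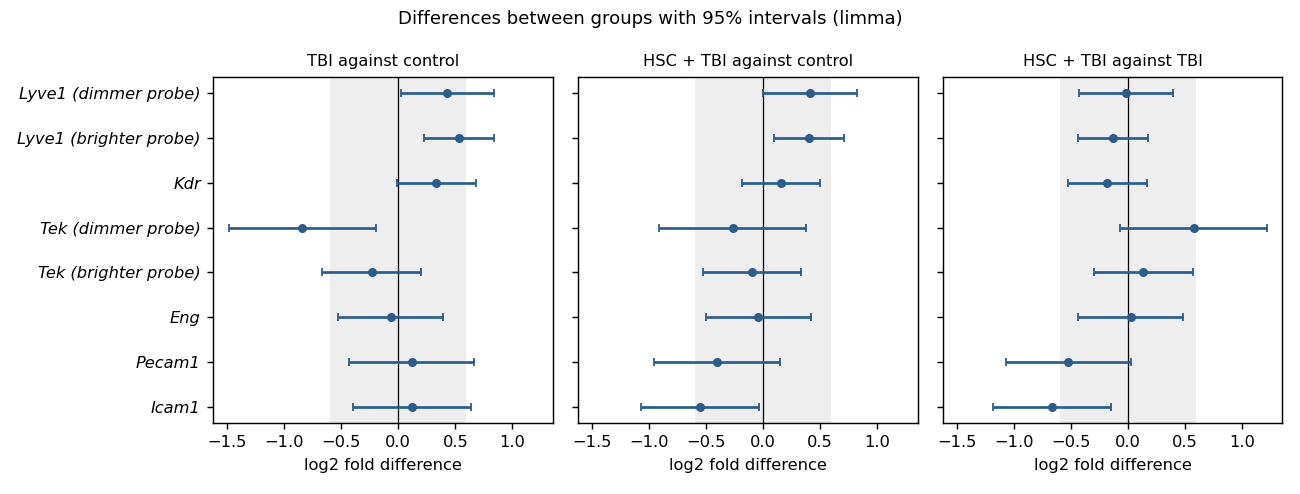
Log2 fold difference (horizontal axis) of each tested member probe in the 3 comparisons, with 95% intervals from limma. The grey band marks differences under 1.5-fold. Lyve1 after TBI lies to the right of 0 on both probes, Icam1 in HSC + TBI against TBI lies to the left, and the intervals of Eng stay in the band. The dimmer Tek probe passed the background filter only through control.

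Of the adhesion molecules, Icam1 (gene ID 25464), the ligand of the beta-2 integrins on leukocytes, was lower in HSC + TBI than in TBI on its 1 probe, but did not pass the test. The controls measured 10.74, 11.52 and 11.40, the TBI rats 11.05, 11.40 and 11.56, and the HSC + TBI rats 10.58, 10.87 and 10.56. All 3 HSC + TBI rats lay below all TBI rats, and 1 of them lay above the lowest control. The HSC + TBI mean stood at -0.67 against TBI (SE 0.23, 95% interval -1.19 to -0.15), 1.59-fold lower, with an adjusted p of 0.203 by limma. Against control it stood at -0.55 (95% interval -1.07 to -0.03, adjusted p = 0.227 by limma). TBI differed from control by 0.12, with a 95% interval of -0.40 to 0.63.

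Pecam1 (gene ID 29583), the junctional adhesion molecule CD31 that platelets and leukocytes carry too, had a like order of groups. The controls measured 4.77, 5.55 and 5.07, the TBI rats 5.13, 5.58 and 5.03, and the HSC + TBI rats 4.75, 4.43 and 4.996. The HSC + TBI rats lay below all TBI rats, at a mean log2 difference of -0.52 (95% interval -1.07 to 0.03, adjusted p = 0.333 by limma), and overlapped the controls (-0.40, 95% interval -0.95 to 0.15). Sele (gene ID 25544), E-selectin, was not well above background on any of the 9 arrays (measured at 1.58 to 2.03), so no fold is given for it. Over the 9 arrays Pecam1 and Icam1 had the highest correlation between members (r = 0.657) and Kdr and Tek the lowest (r = -0.369), as a description of 9 arrays that share their slides and groups.

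The summed markers of Kupffer cells, neutrophils and platelets were lower in every HSC + TBI rat than in every other rat. Each sum is weighted to its brightest marker, Clec4f, S100a9 and Pf4 in that order. Taken singly, Cd68, Clec4f, Marco, S100a8, Pf4 and Gp1bb lay below all controls in HSC + TBI. The other tested markers of these lists overlapped the controls: Csf1r, Adgre1, Vsig4, Cd163, S100a9, Ngp, Gp9 and Ppbp. The HSC + TBI mean of Ppbp stood 0.26 above control, and that of Ngp 0.22 above TBI. For Icam1 and Pecam1 the HSC + TBI rats lay below all TBI rats but overlapped the controls. In summed linear signal the 7 Kupffer cell markers came to 46900 to 67490 in control, 46580 to 87850 in TBI and 32730 to 35670 in HSC + TBI. Of the 7 Kupffer cell markers, 6 stood below TBI in HSC + TBI at unadjusted p under 0.05, against 16.3% of all tested probes in either direction. None of the 7 was called, and their median log2 difference was -1.10, against 0.06 over all tested probes. The 5 neutrophil markers with a probe came to 372.5 to 616.2, 383.5 to 777.0 and 235.5 to 306.1 in the same order, and the 5 platelet markers to 421.9 to 502.1, 444.2 to 816.8 and 327.0 to 386.9, where Gp5 was above background on no array. The 7 members with a probe came to 15750 to 18570, 19900 to 23560 and 17270 to 19070. This linear sum is weighted to its brightest probe, that of Kdr, whose groups overlapped each other. It does not describe the members as a set, of which none was called. Of the lymphocyte markers, 4 were tested, and their summed signal was 453.6 to 609.8 in control, 228.2 to 439.2 in TBI and 254.7 to 369.3 in HSC + TBI. Cd79b, a B cell receptor chain, stood well above background on all 3 control arrays and on no irradiated array. It was tested only through control, which favours a lower value in the irradiated groups. Its call as lower in both is given as a description only. Lck, another tested lymphocyte marker, stood above control, at 0.55 after TBI and 0.41 after HSC + TBI. The part of these markers in the Icam1 and Pecam1 values was not tested.

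Around the members stand 74 other genes of endothelial pathways, of which 65 had a probe and 58 were tested. They are called other endothelial genes here, but include adhesion partners that leukocytes carry, such as Itgb2, Itgam and Itga4. After TBI 5 of the 58 rose and 0 fell, against 7.25% of all tested probes called: Jam3, Id1, Nos3, Itgb2 and Tie1. After HSC + TBI 1 rose (Jam3) and 2 fell (Itga4 and Angpt2), against 3.23%. Between the irradiated groups only Itgb2 was called, lower in HSC + TBI, against 0.796%. At unadjusted p under 0.05 stood 20, 16 and 16 of the 58, against 25.5%, 19.6% and 16.3% of all tested probes. The median differences were 0.14, -0.10 and -0.26, against -0.01, 0.05 and 0.06 over all tested probes. Over named genes by their brightest probe they were 0.01, 0.02 and 0.02. In HSC + TBI against TBI, 12 of the 58 genes stood above 0, and the lists differed. Above 0 stood 8 of 11 VEGF and angiopoietin genes (median 0.135), 2 of 9 BMP9 and TGF-beta genes and 2 of 14 junction and general endothelial genes. In the other lists 0 did, among them the 8 leukocyte adhesion partners and inducers (median -0.99).

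**Figure D3:**
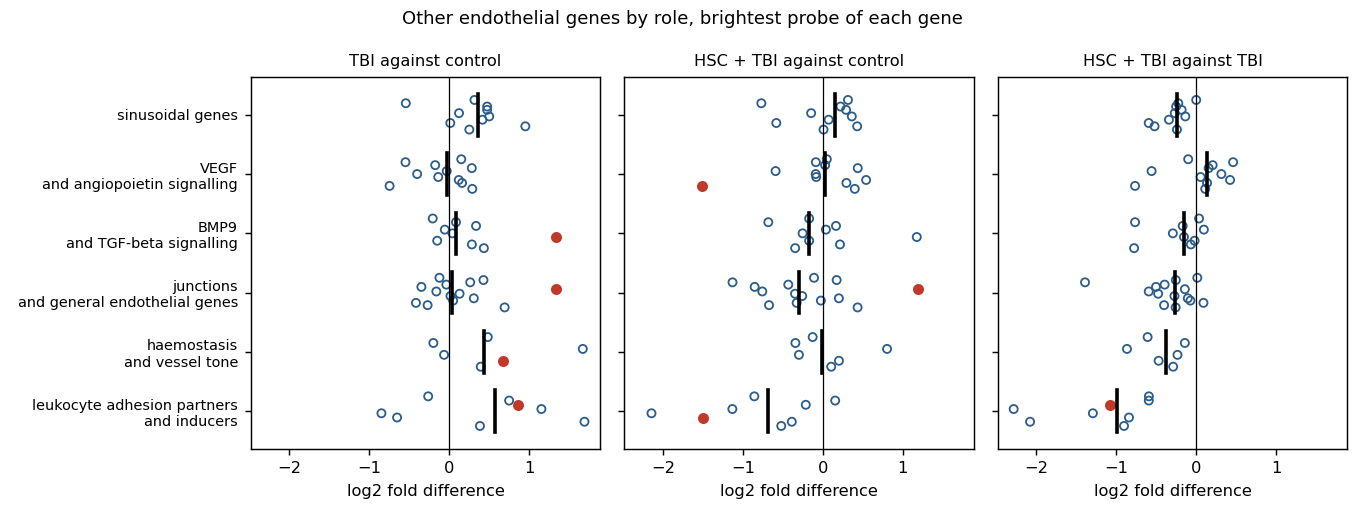
Log2 fold difference (horizontal axis) of each tested gene of the 6 groups of other endothelial genes in the 3 comparisons, 1 point per gene from its brightest probe. Filled red points were called, open points were not, and the black bar is the median. The leukocyte adhesion genes lie to the left of 0 in HSC + TBI against TBI, and the called probe of Tie1 is not the plotted one.

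Of the 10 tested sinusoidal genes 0 were called. After TBI, 9 of the 10 stood above control. At unadjusted p under 0.05 stood 5 of the 10, among them Oit3, which was lower, against 25.5% of all tested probes. The median of the 10 was 0.37, against -0.01 for all tested probes and 0.01 for named genes. Of the 7 Kupffer cell markers, 6 also stood above control, with a median of 0.46, and their part in these values was not tested. Mrc1, Fcgr2b and Cd36 are carried by macrophages as well. Fcgr2b, the Fc receptor that clears immune complexes, stood at 0.50 (adjusted p = 0.0687 by limma), Mrc1, the mannose receptor, at 0.48 (adjusted p = 0.0792 by limma), and Cd36, a fatty acid and scavenger receptor, at 0.95 (adjusted p = 0.178 by limma). Oit3 was the exception, at -0.54. In HSC + TBI against TBI, 0 of the 10 stood above 0. Their median was -0.25, against 0.06 for all tested probes and 0.02 for named genes.

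Jam3, a junctional adhesion molecule, was the gene of these lists called in both comparisons with control. Its controls measured 6.40, 6.63 and 6.001, the TBI rats 7.73, 7.77 and 7.55, and the HSC + TBI rats 7.79, 7.32 and 7.50. All irradiated rats lay above all controls, by 1.33 after TBI (2.52-fold, SE 0.19, adjusted p = 0.00556 by limma) and 1.19 after HSC + TBI (2.28-fold, adjusted p = 0.0135 by limma). The call after TBI held without each of the 9 rats, and that after HSC + TBI was lost without HSC + TBI replicate 1.

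Nos3, the endothelial nitric oxide synthase, rose after TBI. The controls measured 7.36, 7.25 and 7.42, the TBI rats 7.96, 8.10 and 7.997, and the HSC + TBI rats 7.51, 7.61 and 7.53. The TBI rats lay above both other groups, at 0.67 over control (1.60-fold, adjusted p = 0.00798 by limma). HSC + TBI stood at -0.47 against TBI (adjusted p = 0.0895 by limma). The call held without each of the 9 rats. It was lost with another background correction (normexp), at 0.43 and so under the 1.5-fold minimum. Id1, a target gene of BMP signalling, rose after TBI by 1.33 (2.52-fold, adjusted p = 0.0288 by limma), with control rats at 6.53, 7.04 and 7.07 and TBI rats at 8.01, 8.85 and 7.77, and its HSC + TBI rats measured 7.73, 8.17 and 8.27. Its call was lost without any of the 3 controls and without TBI replicate 2.

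Itgb2, the beta-2 integrin chain that leukocytes use to bind Icam1, was called in opposite directions after TBI and in HSC + TBI against TBI. Its controls measured 9.07, 9.32 and 9.07, the TBI rats 9.66, 10.27 and 10.12, and the HSC + TBI rats 8.82, 9.14 and 8.86. It rose by 0.87 after TBI (adjusted p = 0.0233 by limma), and stood at -1.08 in HSC + TBI against TBI (2.11-fold lower, adjusted p = 0.0435 by limma). These 2 comparisons share the TBI rats. The first call was lost without control replicate 1 or 3 or TBI replicate 2, and the second held only without TBI replicate 1 or TBI replicate 3, being lost in the other 7 fits that left out 1 rat. Its partner chain Itgam stood at 1.15 and -2.29 (adjusted p = 0.207 and 0.0949 by limma), and Il1b, an inducer of endothelial adhesion molecules, at 1.69 and -2.08 (adjusted p = 0.0925 and 0.126 by limma). The group's 8 tested genes had a median of 0.57 after TBI, -0.69 after HSC + TBI and -0.99 between the irradiated groups. Itgb2 is carried by leukocytes, and the marker sums of Kupffer cells, neutrophils and lymphocytes are given above.

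**Figure D4:**
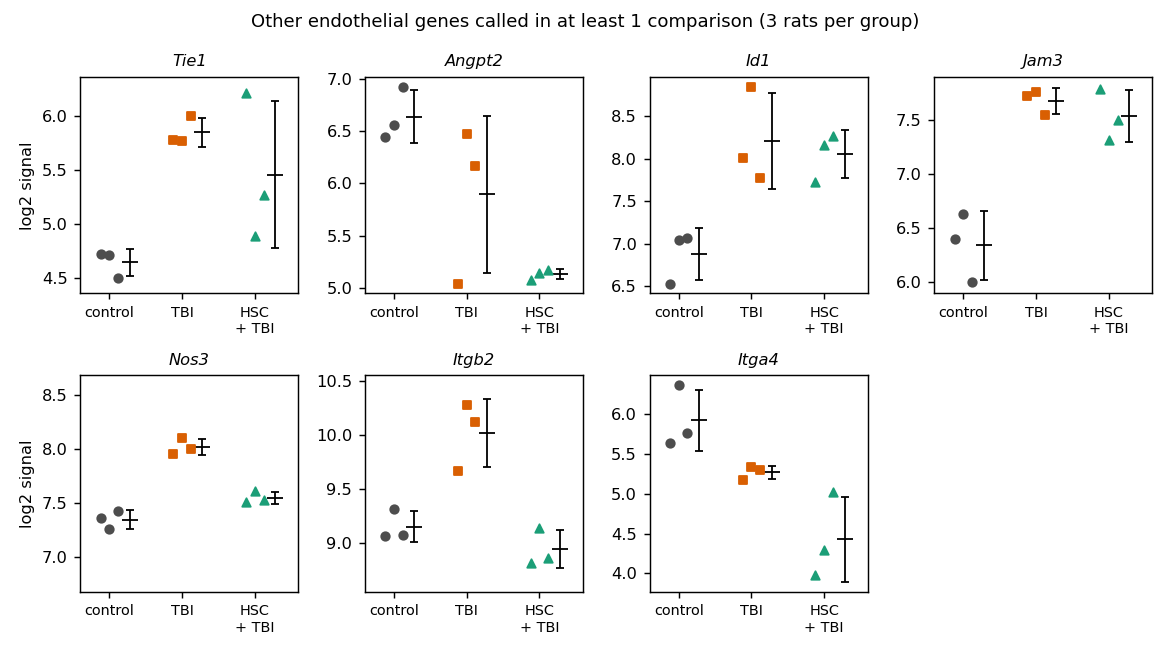
Log2 signal (vertical axis) in each rat of the 7 genes of the endothelial pathway lists called in at least 1 comparison, with the group mean and SD in black. Itgb2 and Itga4 are leukocyte integrin chains. The TBI points do not overlap control for any gene but Angpt2, and the HSC + TBI points do not overlap control for any gene but Itgb2. Tie1 is shown by its called probe.

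Angpt2, the angiopoietin that opposes Tek signalling, fell after HSC + TBI: the controls measured 6.44, 6.56 and 6.92, the TBI rats 5.04, 6.47 and 6.17, and the HSC + TBI rats 5.08, 5.15 and 5.17. HSC + TBI stood at -1.51 (2.85-fold lower, adjusted p = 0.0449 by limma). With 1 rat left out, this call held only without TBI replicate 1 or 2. Tie1, a relative of Tek, was called after TBI on its dimmer probe (1.20, adjusted p = 0.0424 by limma), while its brighter probe stood at 0.28. With 1 rat left out, this call held only without HSC + TBI replicate 1 or 2. Itga4, the leukocyte integrin chain that binds Vcam1, fell after HSC + TBI by 1.49 on the log2 scale (2.82-fold, adjusted p = 0.0272 by limma). It went from 5.64, 6.36 and 5.77 in control to 3.98, 4.29 and 5.02, and the call was lost without control replicate 2 or 3 or HSC + TBI replicate 1 or 2. The TBI rats, at 5.175, 5.33 and 5.30, also lay below all controls (-0.65, adjusted p = 0.186 by limma). HSC + TBI stood at -0.84 against TBI (adjusted p = 0.194 by limma). Lymphocytes carry Itga4, and the summed lymphocyte markers were lower in all 3 HSC + TBI rats (254.7 to 369.3) than in all controls (453.6 to 609.8). Among these markers Lck went the other way, at 0.41 against control, and Cd79b was tested only through control. The part of the lymphocyte markers in the Itga4 value was not tested.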

How the data were processed

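Per the file headers, the authors scanned each array with Agilent Feature Extraction 10.7.3.1, which reported spot and local background intensities, processed signals and flags on spot quality. The authors also deposited log2 values normalized by quantiles, used here as an alternative. Here, processed signals without control and outlier spots (84 to 115 of 43379 spots per array, and 0 saturated) were floored at 1 and log2-transformed. Quantile normalization across the 9 arrays followed, then averaging per probe. Gene names came by accession from RefSeq (GRCr8, for names only) for 16968 of 41012 probes. limma 3.58.1 in R 4.3.3 compared the 3 group means in 1 fit. Calls are adjusted over all tested probes. The fit was tested on simulated data. The number of rats limits the precision, as an exact two-sided permutation test of 3 against 3 cannot go below 0.1. The labels number the samples of a group without stating how they were obtained, so p-values measure the spread between these samples.

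A gene was called where at least 1 tested probe was, and list medians use its brightest probe. Named in the text are all members, the called other endothelial genes, the 3 genes most like the member with the smallest F-test p, and markers that move with a result. Some uncalled examples and the promoter motifs were chosen after their values were seen. The members and lists were chosen with earlier results of these data known. Alternatives were another background correction and scaling, other filters, the authors' values, other probe and sample choices, the methods' t-test, replicate and slide blocks and each rat left out. The study names a t-test with a fold minimum for its array calls but not its variance form. It was run first with equal variances, then with unequal ones after the study's listed p-values had been seen, and the equal-variance form is kept as an alternative chosen after seeing the data.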

Additional observations from a re-analysis of the deposited data

How the results depend on the processing

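The direction of the Lyve1 (brighter probe), Kdr and Icam1 differences named above held under each alternative, except that Icam1 after TBI ranged from -0.12 to 0.27 when each rat was left out. Members called after TBI numbered 1 with a 75th percentile shift or no minimum fold change (Lyve1), 1 with the replicate block or the slide as a block (Tek, dimmer probe, which passed the background filter only through control), 1 by the unadjusted t-test with equal variances (the same Tek probe), and 0 to 1 with each rat left out (1 without TBI replicate 1, Lyve1 at 0.62). In HSC + TBI against TBI they numbered 1 by the unadjusted t-test with unequal or equal variances and 1 with the slide as a random block (both Icam1). Member probes passing the F-test numbered 1 with normexp and 5 with the slide block. The slide block had a consensus correlation of -0.327. Each slide held arrays of only 1 group, so this block cannot separate slide from group. Counts under the slide block are given as a description only. With normexp, Nos3 and Tie1 after TBI, Itga4 after HSC + TBI and Itgb2 between the irradiated groups lost their calls. Other endothelial genes called after TBI numbered 3 with normexp, 3 with only the compared groups and 0 by either adjusted t-test. They numbered 14 with the slide block and 2 to 7 with each rat left out. After HSC + TBI they numbered 7 with only the compared groups, 8 by the unadjusted t-test (10 with equal variances), 0 by either adjusted t-test, 13 with the slide block and 0 to 7 with each rat left out (7 without TBI replicate 1, 0 without HSC + TBI replicate 1). In HSC + TBI against TBI they numbered 0 with normexp, with no filter on dim probes, with a filter asking for signal above background on all 9 arrays, and with only the compared groups, 4 by the unadjusted t-test (6 with equal variances), 0 by either adjusted t-test, 11 with the slide block and 0 to 12 with each rat left out (12 without TBI replicate 1). The cause was not tested.

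With the 75th percentile shift the HSC + TBI against TBI difference reversed to 0.003 on the dimmer Lyve1 probe and -0.015 on the brighter Tek probe. With each rat left out, values that changed sign ranged from -0.063 to 0.328 for Pecam1 after TBI, from -0.277 to 0.032 and -0.423 to 0.014 for the brighter and dimmer Tek probe after HSC + TBI, from -0.108 to 0.072 for the dimmer Lyve1 probe between the irradiated groups, and for Eng from -0.18 to 0.10, -0.20 to 0.12 and -0.13 to 0.13 in the 3 comparisons. Id1 in HSC + TBI against TBI ranged from -0.374 to 0.163. Rats of the same number had deviations correlating from -0.144 to 0.191 over 9 pairs, so the numbers were not taken to pair the rats.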
